A study of Caenorhabditis elegans with 12 samples.

Results

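The genes described here are the digestive and lysosomal hydrolases of the worm that carry the names asp, cpr, cpl-1, cpz-1 and pho in the deposited table. They were taken by name: every gene whose symbol starts with asp-, cpr- or pho-, together with cpl-1 and cpz-1, with 1 transcript model for each sequence name. This gave 26 of 30301 genes, namely 6 aspartic proteases, 6 cathepsin B-like cysteine proteases, the cathepsin L gene cpl-1, the cathepsin Z gene cpz-1, and 12 acid phosphatases. The families were chosen with earlier results of these data known, so their shares beside those of all genes are no independent support. RNA was sequenced from whole Caenorhabditis elegans, the wild type or a mutant of dlk-1, an upstream kinase of a p38 MAP kinase pathway. The titles call this mutant a p38 knockout, and its allele is not stated in the labels. Worms of both genotypes were raised in synchrony on plates of OP-50 bacteria and moved at the L4 stage, the last larval stage, to plates with 0 or 1 mM fluvastatin for 9 h. Fluvastatin is a statin, an inhibitor of HMG-CoA reductase in the mevalonate pathway. The 4 groups were therefore wild type without and with fluvastatin and dlk-1 mutant without and with fluvastatin, each of 3 libraries from pooled worms, with 4 plates of about 200 worms for each condition.

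Aspartic proteases and cathepsins are made as inactive precursors that become active at acid pH, and acid phosphatases remove phosphate groups under the same conditions. In the worm many of them act in the intestine, which is at once the organ of digestion, the main store of fat and the maker of yolk, and whose cells are rich in lysosomes and lysosome-related gut granules. asp-1 is a gut aspartic protease, cpr-1 a gut cysteine protease, and pho-1 the acid phosphatase of the brush border on the gut lumen, a known target of the gut GATA factor ELT-2. asp-3 and asp-4 are cathepsin D-like lysosomal proteases known for their part in necrotic cell death, cpl-1 is needed for the processing of yolk in embryos, and cpz-1 is known for its part in moulting.

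The reads recovered for the 1 transcript model kept for each sequence name summed to between 9370975 and 12438131 in a library. Reads of other models and unassigned reads are not in these sums. Values below are normalised reads, that is, reads divided by 1 size factor for each library. The dlk-1 transcript was lower in the mutant than in the wild type of the same treatment, with 791 to 961 against 481 to 541 normalised reads without fluvastatin and 983 to 1419 against 706 to 804 with it. Whether replicates came from separate cultures is not said in the labels, and the p-values therefore cover only the spread between these libraries, which may be technical. Libraries with the same replicate number deviated together in all genes, and the first principal component, with 58.5% of the variance, followed the replicate number. For this reason each test is given in 2 forms where the answers differ, without and with the replicate number as a block in the model. A gene is said to pass when its adjusted p was under 0.05, adjusted over all 15529 genes tested with limma. Markers of body wall muscle, neurons, epidermis, pharynx, sperm and oocytes were present in every library beside those of the intestine, as whole animals would give. In such material fewer cells of a type and less RNA per cell cannot be told apart.

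Of the 26 genes, 24 had at least 10 normalised reads in at least 3 libraries and were tested. The remaining pair were cpr-2, with a mean of 1.71 normalised reads over the 12 libraries, and pho-10, with a mean of 2.47. Their group means were 1.27 to 2.23 and 1.47 to 5.05, too few reads for any statement on a difference. Set per kilobase of exon, so that genes can be compared, asp-1 was the most abundant with a mean of 9825 normalised reads per kilobase. It was followed by cpl-1 with 4801, asp-6 with 4121, asp-5 with 3069.7 and asp-3 with 2209 normalised reads per kilobase. Proteases held the upper ranks, and a single acid phosphatase, pho-11 with 1942 normalised reads per kilobase, stood among them. pho-1 had 840.2 normalised reads per kilobase, pho-14 393 and pho-5 296. The 7 other tested acid phosphatases lay between 12.8 for pho-6 and 198 for pho-13 on the same scale. Within the cathepsin B-like genes that carry a cpr symbol in the table the most abundant, cpr-6, had 1909 and the least abundant of those tested, cpr-3, 152 normalised reads per kilobase.

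Several of the genes are neighbours in the genome. By the Ensembl 115 annotation of WBcel235, 12 of the 26 lie on chromosome V and 7, all of them acid phosphatases, on chromosome II. pho-1 and pho-4 are neighbours on the minus strand of chromosome II, at positions 5233156 to 5235846 and 5236257 to 5238466, with 410 bases between them. asp-6 and asp-5 lie on chromosome V on either side of a further aspartic protease gene, asp-12, with 272 and 328 bases between neighbours. The library kit did not mark strand, and 7 of the genes share exon bases with a gene on the opposite strand, which limits how far their reads can be told from those of the partner. The shared bases were 120 of the 1511 exon bases of pho-1, 74 of 1381 of asp-2, 34 of 1323 of pho-11 and 33 of 1460 of asp-4, and between 49 and 69 bases of pho-5, pho-6 and pho-13. The partner of pho-1, EGAP2.1, had a log2 change with fluvastatin of 0.10 in the wild type and -0.12 in the mutant, that of asp-2, inx-10, -0.02 and -0.08, and that of pho-11, C05C10.3, -0.11 and -0.13. R12H7.4, the partner of asp-4, had a mean of 0.922 normalised reads over the 12 libraries. gcy-7, the partner of pho-6, had 6.17 against 16.6 for pho-6, and neither R12H7.4 nor gcy-7 was tested. The partner was more abundant than the gene itself for pho-11 (2865 against 2569) and pho-5 (1464 against 437), and less abundant for the others. The partners of pho-13 and pho-5, appg-2 and B0361.3, had log2 changes of -0.68 and 0.07 in the wild type and -0.16 and -0.01 in the mutant. None of the 5 tested partners passed in either genotype with the replicate block. How many reads of each gene came from its partner was not tested.

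Shares of reads are given of the reads recovered for the transcript models kept. Together the 26 genes took 0.483% ± 0.0657 (SD, n = 3) in the wild-type controls and 0.387% ± 0.0185 with fluvastatin. In the mutant the shares were 0.470% ± 0.0697 and 0.387% ± 0.0177. The aspartic proteases made up the larger part, with 0.282% of reads in the wild-type controls and 0.231% with fluvastatin, and 0.277% and 0.233% in the mutant. asp-1 alone held 0.122% and 0.0873% in the wild type, where the mutant had 0.123% and 0.0957%. The acid phosphatases held 0.0596% and 0.0437% in the wild type, where the mutant had 0.0590% and 0.0436%. These summed shares are a description and were not tested as such.

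**Figure D1:**
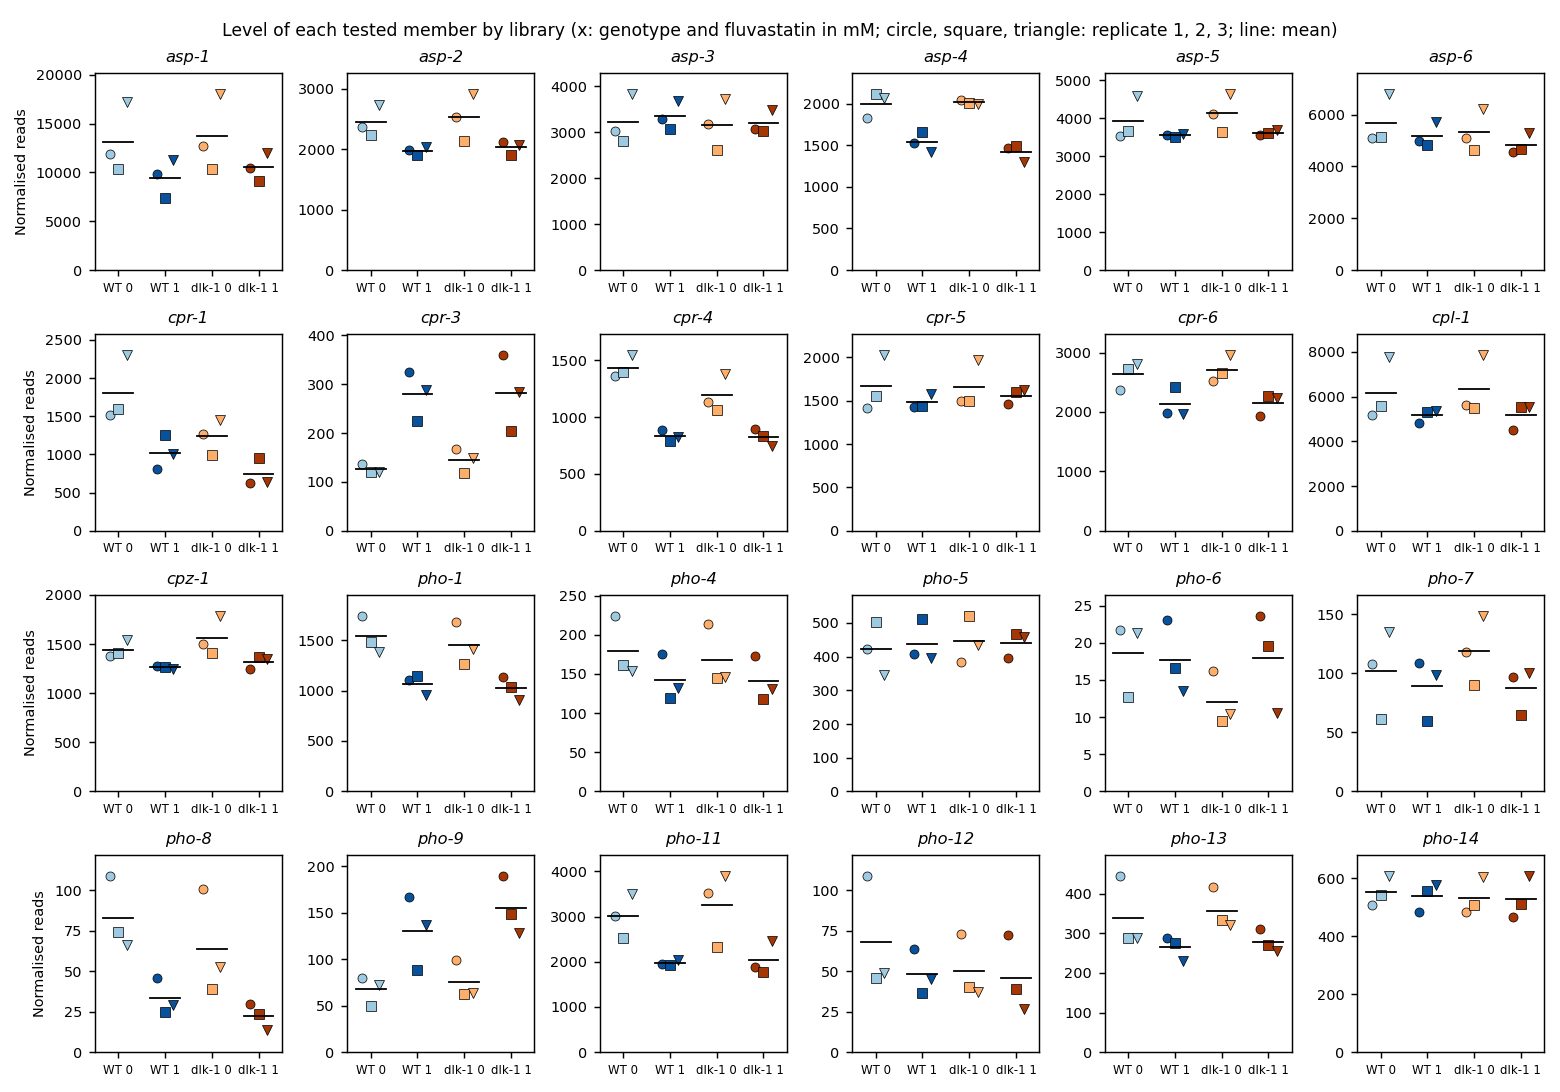
Normalised reads (y axis, linear, from 0) of the 24 tested genes in each of the 12 libraries, by genotype and fluvastatin dose in mM (x axis); circles, squares and triangles are replicates 1, 2 and 3 and lines are group means. With fluvastatin cpr-4, asp-4 and pho-1 are lower and cpr-3 is higher in both genotypes with no overlap, while asp-3, pho-5 and pho-14 keep nearly the same group means.

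The first comparison asked how the wild type responded to 9 h of fluvastatin. With the replicate block in the model, 8 of the 24 tested genes fell and 2 of low abundance, cpr-3 and pho-9, rose. Of the 24, 20 had a log2 change below 0 (83.3%), against 48.5% of all genes tested, and the median log2 change was -0.27 against 0.01 over all genes. Without the replicate block, cpr-3 rose and cpr-4 fell, so 2 of 24 passed (8.33%), where 1.82% of all genes did, 1.39% higher and 0.425% lower. The 8 that fell with the block were asp-1, asp-2, asp-4, cpr-4, cpr-6, pho-1, pho-8 and pho-11. The 10 calls with the block were 41.7% of the 24, against 7.03% of all genes with the block, 3.77% higher and 3.25% lower. Without any model, 8 genes were lower with no overlap between the 3 libraries of each group (33.3%), against 4.37% of all genes, and 2 were higher (8.33%) against 4.6%.

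The second comparison asked the same of the dlk-1 mutant, with its own control libraries. Again 20 of the 24 genes had a log2 change below 0 (83.3%, against 48.3% of all genes), and the median log2 change was -0.26. Without the block, asp-4 fell and no gene rose, so 1 of 24 passed (4.17%), where 1.38% of all genes did, 1.13% higher and 0.251% lower. With the block, 2 rose (cpr-3 and pho-9) and 9 fell (asp-1, asp-2, asp-4, cpr-4, cpr-6, pho-1, pho-8, pho-11 and pho-13), which was 45.8% of the 24, against 6.31% of all genes, 3.22% higher and 3.09% lower. Of the genes that passed with the block, 10 were the same in both genotypes and moved the same way, which left pho-13 passing in the mutant and not in the wild type. Without the block, no gene passed in both genotypes. In the mutant 9 genes were lower with no overlap between groups (37.5%), against 4.06% of all genes, and 2 were higher (8.33%) against 3.87%.

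**Figure D2:**
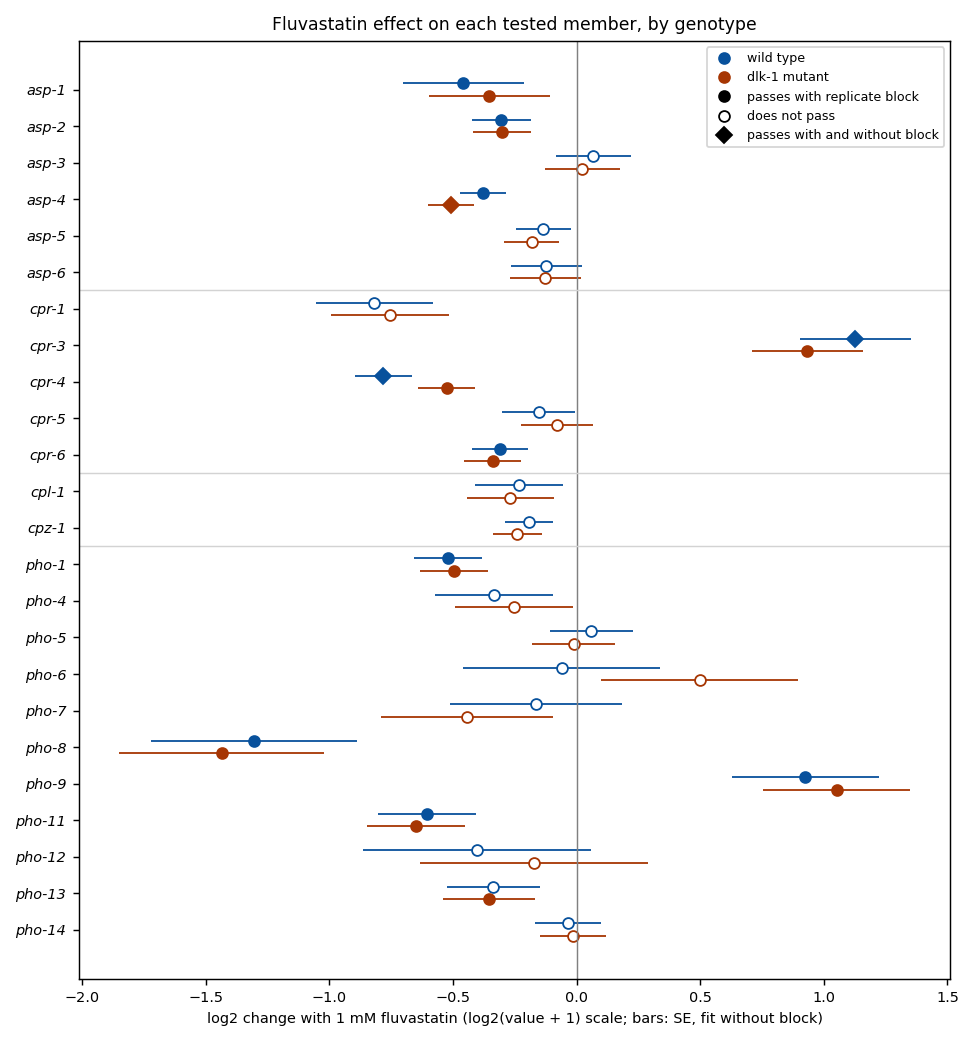
Log2 change with fluvastatin (x axis, log2(value + 1) scale) of each tested gene in the wild type (blue) and the dlk-1 mutant (brown), with bars of 1 SE from the fit without the block; filled symbols pass with the replicate block and diamonds also without it. Most points lie left of 0, with cpr-3 and pho-9 to the right in both genotypes.

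Among the aspartic proteases, 3 of 6 fell with fluvastatin in each genotype with the replicate block, asp-1, asp-2 and asp-4. Of all genes, 3.25% fell in the wild type and 3.09% in the mutant with the block. None of these 6 rose, while asp-8, left out by its sequence name and described at the end, rose with the block. The median log2 change of the family was -0.22 in the wild type and -0.24 in the mutant. asp-4, the cathepsin D-like lysosomal protease, had 1820.5, 2110.4 and 2065 in the wild-type controls and 1528, 1658 and 1418 with fluvastatin (replicates 1, 2 and 3). Its values in the mutant were 2039.9, 2002 and 1997 in the controls and 1469, 1486 and 1293 with fluvastatin. In both genotypes every fluvastatin library lay below every control library. The log2 change was -0.38 ± 0.09 (SE, n = 3) in the wild type, with a limma adjusted p of 0.0894 without the block and 0.00214 with it. DESeq2, run without the block, called asp-4 in the wild type (adjusted p = 0.00501). In the mutant the log2 change was -0.51 ± 0.09, with a limma adjusted p of 0.0217 without the block. Without the block 7 of the 12 limma fits that each left out 1 library kept this call. The call was lost without replicate 1, 2 or 3 of the mutant controls or replicate 1 or 3 of the mutant with fluvastatin, with adjusted p up to 0.112.

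asp-1, the most abundant of the 26 genes, had 11908, 10307 and 17190.3 in the wild-type controls and 9830.4, 7378 and 11219 with fluvastatin. In the mutant its values were 12715, 10363 and 17987 in the controls and 10482, 9077 and 11962 with fluvastatin. Each fluvastatin library was below the control library of the same replicate number, while the groups overlapped, with replicate 3 high and replicate 2 low in every group. The group means were 13135 ± 3602 and 9476 ± 1945 (SD, n = 3) in the wild type, a log2 change of -0.46 ± 0.25 that did not pass without the block and passed with it (adjusted p = 0.00174, limma). In the mutant the log2 change was -0.35 ± 0.25, with an adjusted p of 0.0124 with the block. asp-2, a further aspartic protease, showed a smaller difference, from 2444 ± 257 to 1972 ± 71.2 in the wild type and from 2523 ± 389 to 2029.8 ± 108 in the mutant. It passed with the block (adjusted p = 0.00957 and 0.0114) and not without it (0.572 and 0.636). The fluvastatin libraries of asp-2 lay below the controls in both genotypes, by a narrow margin in the mutant.

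The other 3 aspartic proteases did not pass in any genotype or fit with limma. asp-3, the other cathepsin D-like gene of necrotic cell death, had 3216 ± 535 normalised reads in the wild-type controls and 3349.7 ± 309 with fluvastatin, and 3164 ± 557 and 3189 ± 254 in the mutant. Its log2 change was 0.07 and 0.02, beside -0.38 and -0.51 for asp-4. asp-5 and asp-6 had log2 changes of -0.14 and -0.12 in the wild type and -0.18 and -0.13 in the mutant. Their group means lay at 3549.8 to 4129.5 and 4847 to 5671 normalised reads, and their groups overlapped.

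The cathepsin B-like genes moved apart. With the block, 3.77% of all genes rose and 3.25% fell in the wild type, and 3.22% and 3.09% in the mutant. Of the 5 tested cathepsin B-like genes, 1 rose (cpr-3) and 2 fell (cpr-4 and cpr-6) with the block in each genotype. Their median log2 change was -0.31 in the wild type and -0.34 in the mutant. cpr-3, the least abundant of the tested ones, had 137, 121 and 121 in the wild-type controls and 326, 225 and 288 with fluvastatin. In the mutant it had 168, 118 and 149 in the controls and 359.7, 203 and 283 with fluvastatin. The lowest fluvastatin library was above the highest control library in both genotypes. The wild-type mean was 2.21 times that of the controls, with a log2 change of 1.13 ± 0.22 (SE, n = 3) and an adjusted p of 0.0308 (limma without the block). This call was kept in 5 of the 12 fits that left out 1 library. It was lost without any 1 of the wild-type control libraries, without replicate 1 or 3 of the wild type with fluvastatin, and without replicate 3 of either mutant group, with adjusted p up to 0.167. In the mutant the log2 change of cpr-3 was 0.93 ± 0.22, with a limma adjusted p of 0.105 without the block and 0.000108 with it. DESeq2, run without the block, called cpr-3 in the mutant (adjusted p = 0.00560).

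cpr-4 encodes a cathepsin B known as a secreted protein that acts on distant cells after irradiation. It had 1358, 1396 and 1546 in the wild-type controls and 889, 789 and 821 with fluvastatin. Its values were 1135, 1059.8 and 1377 in the mutant controls and 892, 833 and 746 with fluvastatin. The fluvastatin and control libraries did not overlap in either genotype, and the fluvastatin libraries of the genotypes lay close together. The wild-type log2 change was -0.78 ± 0.12, with an adjusted p of 0.00450 (limma without the block), and this call was kept in all 12 fits that left out 1 library, with adjusted p up to 0.0291. In the mutant the log2 change was -0.53 ± 0.12, with a limma adjusted p of 0.0610 without the block and 0.00322 with it. DESeq2, run without the block, called cpr-4 in the mutant (adjusted p = 0.00210).

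cpr-6, the most abundant of the cathepsin B-like genes named in the table, went from 2634 ± 234 to 2128 ± 259 in the wild type and from 2713 ± 224 to 2144 ± 184 in the mutant. Its log2 change was -0.31 ± 0.12 and -0.34 ± 0.12, which passed with the block (adjusted p = 0.0128 and 0.00786, limma) and not without it. cpr-1, the gut cysteine protease, had the lowest fluvastatin-to-control ratio of the 13 tested proteases among the 26 genes, and passed in neither limma fit. It had 1519, 1599 and 2302 in the wild-type controls and 809, 1250.3 and 1008 with fluvastatin. In the mutant it had 1274, 987 and 1445 in the controls and 621, 958 and 635 with fluvastatin. The fluvastatin libraries were below the controls with no overlap in both genotypes, but replicate 2 was the highest library with fluvastatin and the replicate numbers did not order alike across groups. The log2 change was -0.82 ± 0.24 in the wild type and -0.76 ± 0.24 in the mutant, with adjusted p of 0.207 and 0.336 without the block and 0.137 and 0.178 with it. DESeq2 called cpr-1 in the wild type, close to the threshold (adjusted p = 0.0492), and not in the mutant. cpr-5, a further cathepsin B-like gene, had group means of 1481 to 1666 normalised reads and log2 changes of -0.15 and -0.08, and did not pass.

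Neither the cathepsin L gene nor the cathepsin Z gene passed. cpl-1, which acts in yolk processing, had 6165 ± 1395 normalised reads in the wild-type controls and 5165 ± 286 with fluvastatin, and 6321 ± 1338 and 5199.9 ± 594 in the mutant, with log2 changes of -0.23 ± 0.18 and -0.27 ± 0.18. Its control groups overlapped its fluvastatin groups. cpz-1 had 1443 ± 89.4 and 1262 ± 13.5 in the wild type, and 1566 ± 199 and 1320.1 ± 67.1 in mutant animals. The fluvastatin libraries of cpz-1 lay below the controls with no overlap in both genotypes, by a narrow margin in the mutant. Its log2 changes were -0.19 ± 0.10 and -0.24 ± 0.10, with adjusted p of 0.144 and 0.0588 with the block.

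Of the 11 acid phosphatases tested, 1 rose (pho-9) and 3 fell (pho-1, pho-8 and pho-11) in the wild type with the block, and 1 rose (pho-9) and 4 fell (the same 3 and pho-13) in the mutant. Of all genes, 3.77% rose and 3.25% fell in the wild type with the block, and 3.22% and 3.09% in the mutant. None of the 11 passed in limma without the block, where 4 in each genotype had an unadjusted p under 0.05. Over all genes this share was 5.83% in the wild type and 5.69% in the mutant. DESeq2 called pho-1 in the wild type and pho-9 and pho-11 in the mutant. The median log2 change was -0.34 in the wild type and -0.25 in the mutant. pho-1, the brush-border enzyme, had 1742, 1481 and 1384 in the wild-type controls and 1109, 1139.9 and 957 with fluvastatin. The pho-1 values were 1675, 1262 and 1410.3 in the mutant controls and 1137, 1037 and 901 with fluvastatin. All fluvastatin libraries lay below all control libraries of their genotype. The log2 change was -0.52 ± 0.14 in the wild type and -0.50 ± 0.14 in the mutant, with adjusted p of 0.137 and 0.203 without the block and 0.000502 and 0.000903 with it (limma). Its neighbour pho-4 had group means of 141 to 179.9 normalised reads and log2 changes of -0.34 and -0.25, and did not pass (adjusted p = 0.0520 and 0.173 with the block).

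pho-11, the most abundant acid phosphatase, had 3020.0, 2534 and 3497 in the wild-type controls and 1946, 1927 and 2031 with fluvastatin. The pho-11 values were 3527, 2327 and 3894 in the mutant controls and 1887, 1769.5 and 2469.8 with fluvastatin. The groups did not overlap in the wild type, where the 3 fluvastatin libraries lay close together, and overlapped in the mutant through control replicate 2. The log2 change was -0.60 ± 0.20 and -0.65 ± 0.20, with adjusted p of 0.324 and 0.289 without the block and 0.00666 and 0.00500 with it. pho-13, at 340.1 ± 90.4 and 265 ± 30.8 in the wild type and 358 ± 51.5 and 279 ± 29.5 in the mutant, had log2 changes of -0.34 and -0.35. With the block its adjusted p was 0.0526 in the wild type and 0.0441 in the mutant, on either side of the threshold.

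pho-8 and pho-9 are predicted acid phosphatases of low abundance that moved in opposite directions. pho-8 had 109, 74.1 and 66.5 in the wild-type controls and 46.0, 24.98 and 29.2 with fluvastatin. There were 101, 39.04 and 52.3 in the mutant controls and 29.6, 23.3 and 13.7 with fluvastatin. The fluvastatin libraries were below the controls with no overlap in both genotypes, and replicate 1 was the highest library of every group. The log2 change was -1.31 ± 0.42 in the wild type and -1.44 ± 0.42 in the mutant, with adjusted p of 0.294 and 0.241 without the block and 0.00144 and 0.000794 with it. pho-9 had 80.0, 49.7 and 72.4 in the wild-type controls and 167, 88.5 and 137 with fluvastatin. In the mutant it had 98.6, 62.8 and 63.9 in the controls and 189, 149 and 128 with fluvastatin. The fluvastatin libraries were above the controls with no overlap in either genotype, by narrow margins in the wild type, where the lowest fluvastatin library was replicate 2 and the highest control library replicate 1. The log2 change was 0.93 ± 0.30 and 1.05 ± 0.30, with adjusted p of 0.299 and 0.221 without the block and 0.00174 and 0.000741 with it.

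The 5 remaining acid phosphatases did not pass in either genotype with or without the block. pho-14 and pho-5, the most abundant of them, had group means of 528 to 553 and 423 to 446 normalised reads and log2 changes between -0.03 and 0.06. pho-7 had group means of 87.3 to 119.1 and pho-12 of 46.1 to 67.8, with log2 changes of -0.16 and -0.40 in the wild type and -0.44 and -0.17 in the mutant. pho-6, near the lower limit of what was tested, had group means of 12.1 to 18.6 normalised reads and log2 changes of -0.06 and 0.50.

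Whether the response to fluvastatin differed between the genotypes was tested as the difference of the mutant and the wild-type effects. No gene passed, neither among the 24 nor among all 15529 tested (0%), with or without the block in limma and with edgeR and DESeq2. At an unadjusted p under 0.05 the count was also 0 among the 24 in limma without the block, and 29 over all genes. The differences in log2 change, mutant minus wild type, ran from -0.28 for pho-7 to 0.56 for pho-6, and 20 of the 24 were within 0.2 of 0. For cpr-4 the difference was 0.26, with a 95% interval of -0.03 to 0.54 with the block. For cpr-3 it was -0.19 (-0.54 to 0.15), and for asp-4 -0.13 (-0.33 to 0.07). With the block all 24 intervals held 0, and 23 lay within 1 log2 unit of 0. Differences within the half-widths of these intervals, 0.17 to 0.91 on the log2 scale, were not detectable at this number of libraries. The calls of asp-4 in the mutant and of cpr-3 and cpr-4 in the wild type are thus not shown to differ between genotypes.

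The levels of the genotypes were compared without and with fluvastatin. Without fluvastatin none of the 24 passed (0% of all genes without the block and 0.0966% with it). In limma without the block 2 of the 24 had an unadjusted p under 0.05, cpr-4 with a log2 difference of -0.27 ± 0.12 (mutant minus wild type, SE) and cpr-1 with -0.54 ± 0.24, and neither passed after adjustment. Over all genes the share at that unadjusted threshold was 0.805%. With the block cpr-4 alone of the 24 had an unadjusted p under 0.05. The mutant controls of cpr-1 lay below the wild-type controls with no overlap, the single such gene among the 24, where 1.79% of all genes were lower without overlap. With fluvastatin none of the 24 passed (0% of all genes without the block and 0.27% with it). None was free of overlap between the genotypes, where 1.54% of all genes were higher and 3% lower without overlap. At an unadjusted p under 0.05 the count was 0 without the block and 2 with it, pho-8 with a log2 difference of -0.58 and asp-1 with 0.16. Over all genes the share without the block was 1.46%. For neither comparison of the genotypes was the share of all genes at this threshold counted with the block.

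The levels also varied with the replicate number. For each gene the log2 deviation from its group mean was averaged over the 4 groups for replicates 1, 2 and 3. Acid phosphatases tended to be high in replicate 1, with median deviations of 0.24, -0.20 and -0.13, and the protease families in replicate 3, with -0.03, -0.12 and 0.15 for the aspartic proteases, -0.12, -0.05 and 0.05 for the cathepsin B-like genes and -0.11, -0.04 and 0.14 for cpl-1 and cpz-1. No difference between families was tested. Replicate 1 was the highest library in all 4 groups for 7 genes (cpr-3, pho-4, pho-6, pho-8, pho-9, pho-12 and pho-13), and replicate 3 for 7 others (asp-1, asp-3, asp-5, asp-6, cpr-5, pho-11 and pho-14). The range over replicate numbers exceeded the larger of the fluvastatin changes for 12 of the 24 genes, for example 0.63 against 0.46 log2 units for asp-1 and 0.36 against 0.07 for asp-3. A range and a difference of group means are unlike measures. Neither this count nor those for replicates 1 and 3 was set against the share over all genes. Other gene groups moved further with the replicate number: the median deviations were 0.81, -1.06 and 0.20 for 124 cuticle collagens, and 0.35, -0.99 and 0.66 for 35 major sperm protein genes. Those of 11 intestine markers were 0.10, -0.18 and -0.01. The part of these in the values of the hydrolase genes was not tested.

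**Figure D3:**
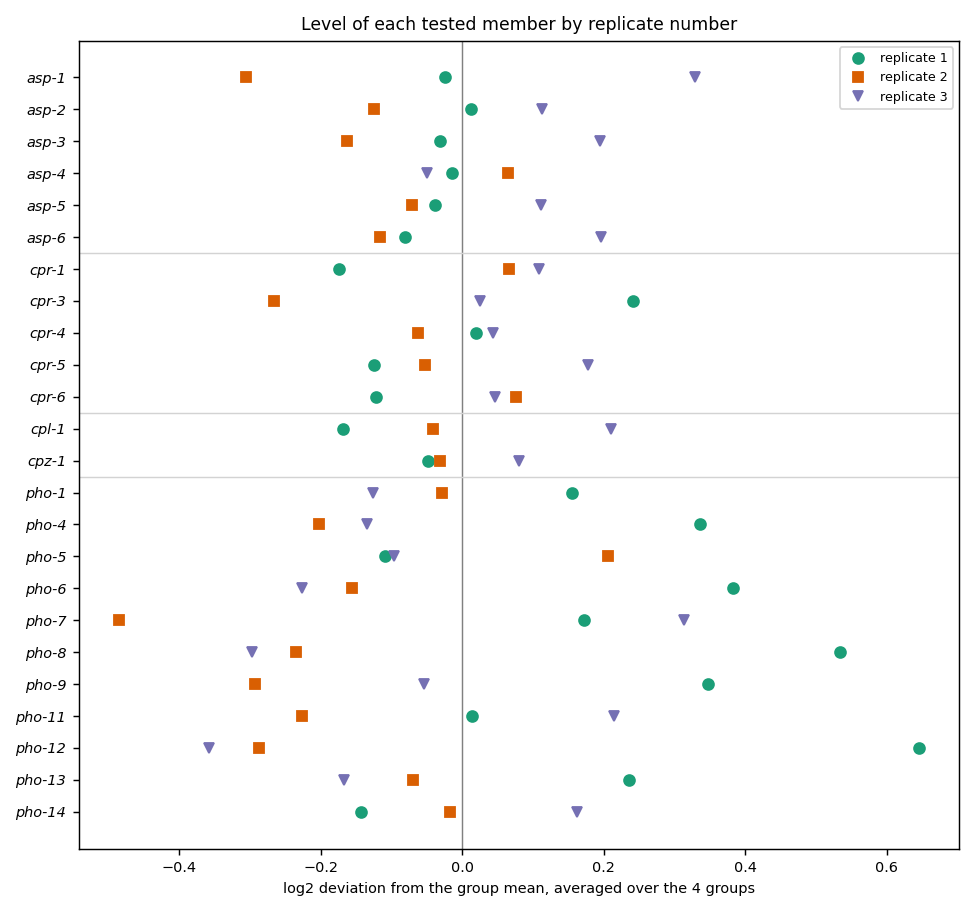
Log2 deviation from the group mean, averaged over the 4 groups (x axis), of each tested gene in replicates 1, 2 and 3. Acid phosphatases such as pho-8 and pho-12 lie to the right in replicate 1, while aspartic proteases such as asp-1 lie to the right in replicate 3.

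Intestine markers are given beside these results because several of the hydrolases are known as gut genes. Of the 12 markers listed 11 were found and tested, and none was at 0 in every library. Their summed level was 16535 to 24040.4 normalised reads in the wild-type controls and 16128 to 21565 with fluvastatin, and 15664 to 23247 and 16590.1 to 20905 in the mutant, so the groups overlapped. Their median log2 change with fluvastatin was 0.05 in the wild type and 0.02 in the mutant, beside -0.27 and -0.26 for the hydrolases. The marker changes ran from -0.28 to 2.28 in the wild type and from -0.41 to 2.14 in the mutant. The lowest in the mutant was elt-2, which is also counted among the transcription factors below. None of the markers passed in limma without the block, where 2 in each genotype had an unadjusted p under 0.05. Over all genes this share was 5.83% in the wild type and 5.69% in the mutant. With the block, the metallothionein gene mtl-1 rose in both genotypes (log2 change 2.28 and 2.14) and the peptide transporter gene pept-1 fell (-0.28 and -0.30). Of the markers of other tissues, none of muscle, neurons, epidermis, pharynx, sperm or oocytes and germline passed in either genotype.

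Related genes were taken from lists by name. For comparison, 1.82% of all genes passed in the wild type and 1.38% in the mutant without the block. With the block the shares were 7.03% and 6.31%. An unadjusted p under 0.05 in limma without the block was seen in 5.83% and 5.69% of all genes. Of 7 acid phosphatases of the acp family, 1 rose and 2 fell in each genotype with the block and none passed in limma without it, where 3 in each genotype had an unadjusted p under 0.05. The median log2 change of the acp genes was -0.25 in the wild type and -0.18 in the mutant. acp-5 rose by 0.62 and 0.74 on the log2 scale, and acp-6 and acp-7 had log2 changes of -0.27 and -0.51 in the wild type and -0.31 and -0.65 in the mutant. Of 12 serine carboxypeptidases of the ctsa and pcp families, 2 rose and 1 fell in the wild type without the block and 1 rose and 1 fell in the mutant, and 2 rose and 3 fell in each genotype with it. pcp-3, a prolyl carboxypeptidase-like gene, went from 1834 to 706 normalised reads in the wild type, a log2 change of -1.40 ± 0.27 (adjusted p = 0.0254, limma), and changed by -1.48 in the mutant. The cathepsin A-like genes ctsa-4.1 and ctsa-4.2 changed by 0.74 and 0.68 in the wild type, and by 0.81 and 0.56 in the mutant. In the mutant ctsa-4.2 passed in limma only with the block, and DESeq2, run without the block, called it (adjusted p = 0.0151). Of 43 tested nas metalloprotease and try trypsin-like genes, none passed in limma without the block, where 3 had an unadjusted p under 0.05 in the wild type and 0 in the mutant. With the block try-9 alone fell, by 1.29 on the log2 scale in the wild type. Neither of the cysteine protease inhibitor genes cpi-1 and cpi-2 passed, and 0 had an unadjusted p under 0.05 in limma without the block.

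Among 24 other lysosomal hydrolases, 1 rose and 1 fell in each genotype without the block. gba-2, a glucocerebrosidase-like gene, had a mean of 9.99 normalised reads in the wild-type controls and 466 with fluvastatin, a log2 change of 5.35 ± 0.42 (adjusted p = 6.37e-05, limma), and changed by 5.22 in the mutant. nuc-1, the acid DNase of the gut and of engulfed corpses, fell by 0.78 and 0.59 on the log2 scale. With the block 3 rose and 7 fell in the wild type and 3 rose and 4 fell in the mutant. crn-6, a DNase II relative, and gba-4, a further glucocerebrosidase-like gene, fell in both genotypes, with log2 changes of -0.82 and -0.77 in the wild type and -0.81 and -0.74 in the mutant. asm-3, an acid sphingomyelinase gene, and asah-1, an acid ceramidase-like gene, fell in the wild type (-0.98 and -0.86), and had log2 changes of -0.59 and -0.50 in the mutant that did not pass (adjusted p = 0.0752 and 0.0538 with the block, limma). Of 25 genes of the lysosomal membrane and of lysosome-related organelles, the spinster-like transporter gene spin-3 fell in both genotypes without the block (-1.58 and -1.49). With the block lmp-2, a LAMP-like gene, rose in both genotypes (0.51 and 0.46), cln-3.3 fell in both (-0.48 and -0.49), and glo-1, the gut granule Rab gene, rose in the mutant (0.80). None of 21 V-ATPase subunit genes, which acidify lysosomes, passed in limma with or without the block, with log2 changes in the wild type of -0.15 to 0.12. At an unadjusted p under 0.05 there were 0 without the block in either genotype, and 2 in the wild type and 6 in the mutant with it. Over all genes the share without the block was 5.83% and 5.69%. The share with the block was not counted, so the 2 and 6 cannot be set against it.

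Of 11 gut and lysosome transcription factor genes, pqm-1 rose with the block (0.46 in the wild type and 0.54 in the mutant) and the others did not pass. elt-2 had log2 changes of -0.20 and -0.41, and hlh-30, the TFEB homologue that drives lysosomal genes, 0.06 and 0.03. Of 6 yolk protein genes, 4 fell in each genotype with the block and none passed in limma without it. In limma without the block 2 in the wild type and 0 in the mutant had an unadjusted p under 0.05. Over all genes that share was 5.83% and 5.69%. The median log2 change of the yolk protein genes was -0.48 in the wild type and -0.42 in the mutant. vit-1, vit-3 and vit-4 changed most among those that passed, at -0.55, -0.55 and -0.52 in the wild type.

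**Figure D4:**
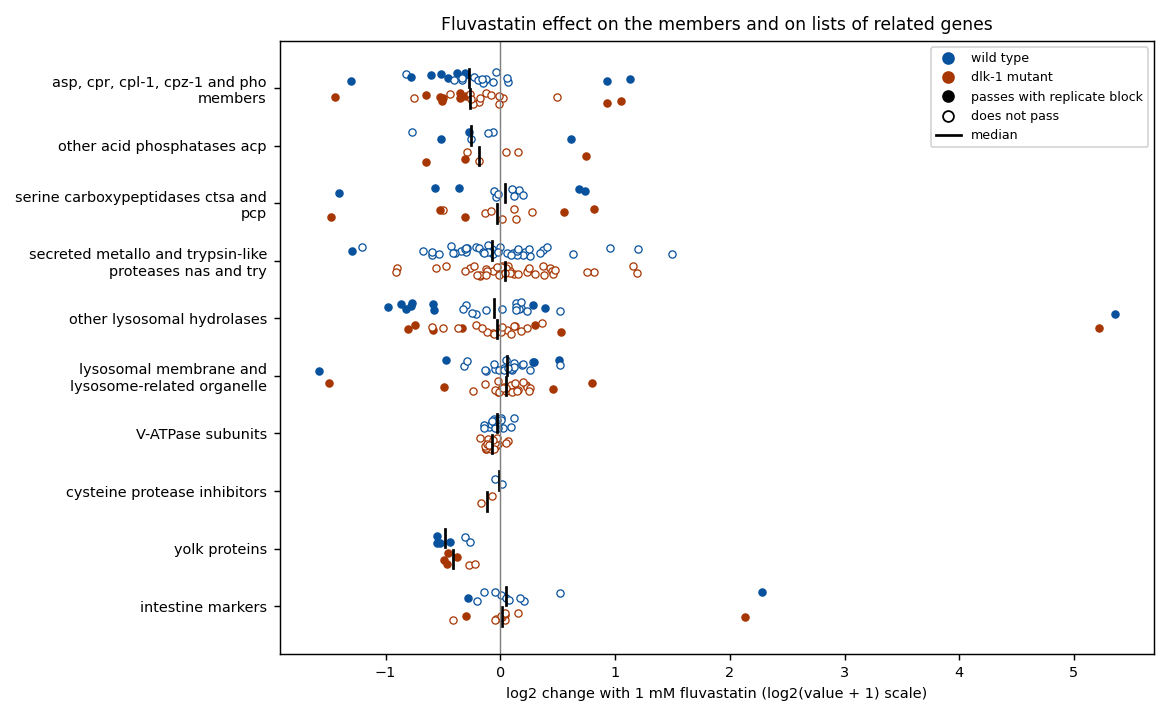
Log2 change with fluvastatin (x axis, log2(value + 1) scale) of each tested gene of the asp, cpr, cpl-1, cpz-1 and pho set and of lists of related genes, in the wild type (blue) and the dlk-1 mutant (brown); filled points pass with the replicate block and bars are medians. The medians of the hydrolases, of the acp acid phosphatases and of the yolk proteins lie below 0, and those of the V-ATPase subunits and intestine markers lie close to 0.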

How the data were processed

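Per the labels' protocols, total RNA of whole worms went into TruSeq v2 libraries, sequenced together as single reads of 50 bp. Per the submitters' processing notes, Bowtie and DESeq2 were used, with no version or role. The genome build, the annotation and the counting method are not stated there. The deposited table holds a normalised signal, in which each library's read counts are divided by its size factor. All 34873 transcript models have values in 12 columns, and 100% of values were whole reads within 0.01 read. Where a sequence name had several models, that of highest mean was kept. The main test was limma 3.58.1 (trend and robust empirical Bayes, two-sided) on log2(value + 1) with the 4 groups in 1 model, for the 15529 genes that reached 10 in 3 or more libraries, with Benjamini-Hochberg adjustment over all of them and a threshold of 0.05. A fold change on this scale understates the change of low genes. edgeR and DESeq2 were run on the recovered reads as alternatives.

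Replicate numbers were taken to pair libraries because the deviations of same-numbered libraries correlated for every pair (r from 0.555 to 0.887) and each of the 12 libraries correlated best with one of its own number. The pairing comes from these correlations and not from the labels. The members and the lists were chosen with earlier results of these data known, so they are no independent support. The text names every member, and of each list up to 3 genes of largest change among those that passed in a comparison; elt-2, hlh-30, cpi-1 and cpi-2 were added after their values were seen. Of 207 list entries 199 were found by name in the table, and the others were not analysed here. Gene positions and exon overlaps came from Ensembl 115, matched by sequence name for 28960 of 30301 genes, and are not those of the build the authors used where that differs. The number of libraries limits the precision.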

Additional observations from a re-analysis of the deposited data

How the results depend on the processing

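Counts of genes that passed depended mainly on the replicate block. In the wild type, 2 of the hydrolases and 282 of all genes passed in the main test, against 10 and 1091 with the replicate block, 12 and 1098 with edgeR and the block (chosen after seeing the data), 5 and 437 with DESeq2, and 1 and 166 when only the groups compared entered the fit. In the mutant, 1 and 214 passed, against 11 and 980 with the block, 11 and 979 with edgeR and the block, 5 and 362 with DESeq2, and 0 and 103 with only the groups compared. Between genotypes no gene passed in the main test. Without fluvastatin 15 of all genes passed with the block, 16 with edgeR and the block and 4 with DESeq2, and with fluvastatin 42, 61 and 7. The cause of these moves was not tested. Leaving out 1 library, the wild-type counts ran from 1 to 2 and from 167 to 278, the mutant counts from 0 to 2 and from 131 to 205, and the count between genotypes with fluvastatin from 0 to 1. Leaving out 1 replicate number, they ran from 0 to 1 and 47 to 255 in the wild type, from 0 to 1 and 43 to 213 in the mutant, and from 0 to 1 between genotypes without fluvastatin. With the replicate block and 1 replicate number left out, they ran from 7 to 12 and 598 to 832 (744 without replicate 2) in the wild type and from 6 to 12 and 563 to 620 (564 without replicate 1) in the mutant. The 11 hydrolases of the mutant became 6 without replicate 1. The same fits gave 1 to 10 genes between genotypes without fluvastatin and 2 to 13 with it. No difference between genotypes in the response passed in any of these fits. No hydrolase that passed changed direction in any alternative. Over 29 alternatives, cpr-4 passed in 26 and cpr-3 in 19 in the wild type, and asp-4 in 20 in the mutant, with log2 changes of -0.87 to -0.72, 1.01 to 1.28 and -0.55 to -0.45. Every other call made with the block was made in 2 to 8 of the 29. Most of the 29 held no block, so this count does not measure how firm the calls with the block were. Other pseudocounts, filters, TMM scaling and summing of transcript models kept the counts within 1.5 times. With 3 libraries per group, the precision for genes that follow the replicate number depended on the block. For asp-1 in the wild type the SE was 0.25 without the block and 0.07 with it.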

Other observations

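The Ensembl 115 annotation names 14 further genes of the same families that the deposited table lists by sequence name or under cpz-2, so the choice by symbol left them out. They are described here by that annotation's names, and 8 of them passed the filter on low values. The median log2 change of these 8 with fluvastatin was 0.03 in the wild type and -0.01 in the mutant, against -0.27 and -0.26 for the 24 genes taken by symbol. asp-13, an aspartic protease gene, had 2671 ± 391 normalised reads (SD, n = 3) in the wild-type controls and 1156 ± 70.8 with fluvastatin, and 2627 ± 823 and 1153 ± 246 in the mutant. It fell in both genotypes without the replicate block, to 0.433 times the control mean in the wild type (adjusted p = 0.0179, limma) and 0.439 times in the mutant (log2 change -1.16 ± 0.22, SE; adjusted p = 0.0276). asp-8 rose with the block in both genotypes, from 109 ± 50.5 to 256 ± 58.2 in the wild type and from 97.0 ± 33.8 to 257 ± 64.6 in the mutant, with log2 changes of 1.32 ± 0.41 and 1.43 ± 0.41. Its adjusted p was 0.254 and 0.227 without the block and 0.000358 and 0.000226 with it (limma). DESeq2, run without the block, called asp-8 in the mutant (adjusted p = 0.0262) and not in the wild type (0.0769). asp-14 fell with the block (-0.50 and -0.48). asp-12, between asp-6 and asp-5 on chromosome V, had log2 changes of -0.46 and -0.98. It did not pass in limma, with an adjusted p of 0.0521 in the mutant with the block. DESeq2, run without the block, called asp-12 in the mutant (adjusted p = 0.0123) and not in the wild type. The fluvastatin libraries of asp-12 lay below the controls with no overlap in both genotypes. cpr-9, cpr-8, cpz-2 and asp-17 did not pass. Of the 6 under the filter, asp-19 was at 0 in every library.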
